A study of Mus musculus with 12 samples.

Results

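Mitochondrial ribosomal protein genes, the nuclear genes whose symbols are Mrpl or Mrps followed by a number and sometimes a letter, were followed through early reprogramming of mouse fibroblasts. The symbol rule found 76 genes among the 23284 gene symbols measured, 47 named Mrpl and 29 named Mrps. Total RNA was sequenced from secondary 1B mouse embryonic fibroblasts (2o 1B MEFs), cells in which doxycycline (dox) switches on introduced reprogramming factors. The 6 groups were siMyc with dox, siGcn5 with dox, siControl with dox, siMyc without dox, siGcn5 without dox and siControl without dox, each with 2 libraries. siMyc is directed against the transcription factor gene Myc, siGcn5 against Kat2a, which encodes the histone acetyltransferase Gcn5 of the SAGA coactivator complex, and siControl is the control siRNA. Dox was given for 2 days in embryonic stem cell medium, after siRNA transfection. The labels do not list the introduced factors, do not tie siRNA pools or individual siRNAs to these libraries, and do not state the medium of the siRNA-treated cells kept without dox, so dox and a change of medium cannot be told apart. They also do not tie replicates to separate cultures, and the tests therefore rest on a spread among libraries that may be technical.

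Mitochondria carry ribosomes of their own, which translate the few membrane proteins of the oxidative phosphorylation complexes that mitochondrial DNA encodes. The proteins of these ribosomes are all encoded in the nucleus, made in the cytosol and imported, while their ribosomal RNA comes from mitochondrial DNA. Part of them descend from bacterial ribosomal proteins and part were gained in the mitochondrial lineage. Myc is known as an activator of genes for both cytosolic and mitochondrial translation. By known structures, 49 of the genes encode large subunit proteins, which include Mrps18a and Mrps30 despite their names, and 26 encode small subunit proteins. The remaining gene, Mrps36, keeps its historical name, although its product is now known as a subunit of the 2-oxoglutarate dehydrogenase complex.

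Levels are RPKM as deposited, reads per kilobase of gene model scaled to the library's depth. Gene reads recovered from these values ran from 65.5 M to 188 M per library, and the replicates of a group correlated at Spearman 0.986 to 0.988 over genes. All 76 genes passed the filter on low values, which asked for 1 RPKM in no fewer than 2 libraries, and the fewest reads of any of them in any library were 579. A gene was called at a limma Benjamini-Hochberg adjusted p under 0.05 over all 13175 genes tested, and every log2 change is on the log2(RPKM + 1) scale. An exact permutation test of 2 against 2 libraries cannot give a p below 0.333, so tests rest on the fit over all genes. The siRNA targets followed their labels. Myc had 16.9 and 26.3 RPKM in siMyc with dox against 174 and 155 RPKM in siControl with dox, and 4.575 and 4.799 RPKM in siMyc without dox against 21.8 and 17.6 RPKM in siControl without dox. Reads of introduced and resident Myc copies cannot be told apart in these values. Kat2a had 6.27 and 9.11 RPKM in siGcn5 with dox against 55.7 and 53.2 RPKM in siControl with dox, and 1.33 and 1.97 RPKM in siGcn5 without dox against 23.0 and 20.7 RPKM in siControl without dox. The knockdowns were not separate, since siMyc with dox lowered Kat2a (log2 change -1.49) and siGcn5 lowered Myc both with dox (log2 change -0.51) and without it (log2 change -1.17).

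The mitochondrial ribosomal protein genes rose together with dox, and this rise was smaller where Myc was depleted. Their summed RPKM was 2284 and 2328 in the siMyc libraries with dox, 3209 and 3447 for siGcn5 and 3733 and 3712 for siControl. Without dox it was 2060 and 1976 for siMyc, 2435 and 2360 for siGcn5 and 2165 and 2177 for siControl. The siControl and siGcn5 libraries with dox were the 4 highest, and by this sum both siMyc libraries with dox lay below both siGcn5 libraries without dox. As shares of all RPKM these groups overlapped, at 0.483% and 0.486% in siMyc with dox and 0.485% and 0.466% in siGcn5 without dox. Without dox the shares of siMyc (0.452% and 0.429%) and siControl (0.431% and 0.424%) overlapped too. The genes took 0.657% ± 0.0014 of all RPKM in siControl with dox and 0.428% ± 0.0047 in siControl without dox (SD, n = 2 each). The ratio of summed large to summed small subunit RPKM lay between 1.93 and 2.16 in the 12 libraries and shifted with group. It was 2.05 and 2.04 in siMyc with dox against 2.16 and 2.13 in siMyc without dox, and 2.16 and 2.15 in siControl with dox against 1.99 and 2.01 in siControl without dox, with no overlap in either pair.

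**Figure D1:**
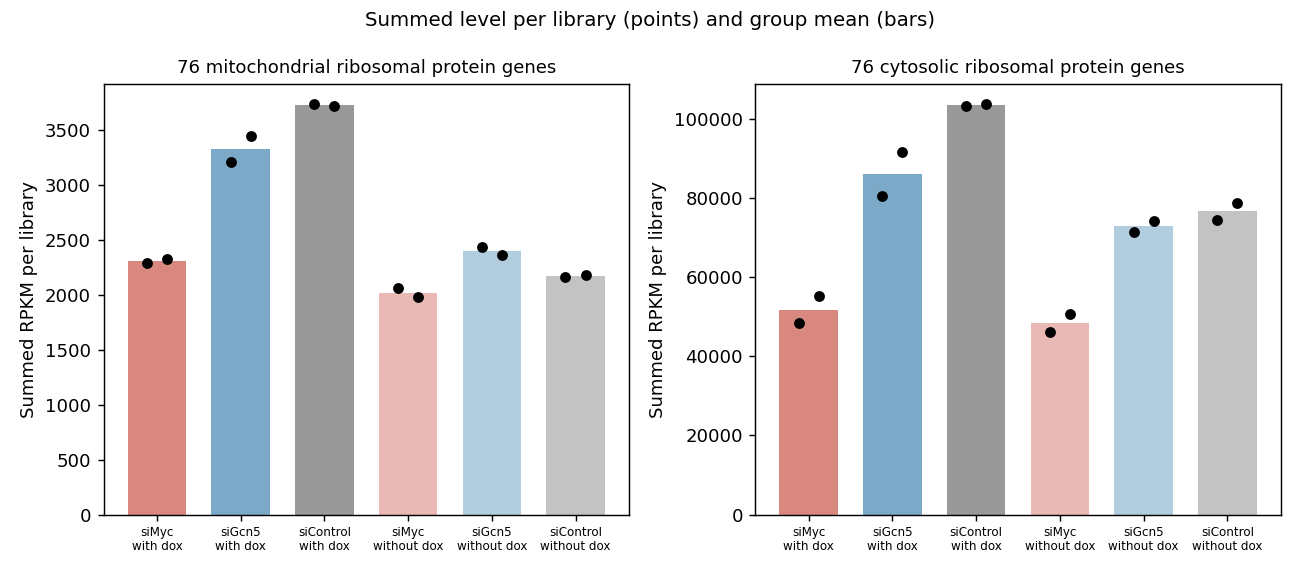
Summed RPKM per library (points) and group means (bars, from 0) of the 76 mitochondrial (left) and 76 cytosolic (right) ribosomal protein genes in the 6 groups. With dox the mitochondrial sum was 2284 and 2328 for siMyc and 3733 and 3712 for siControl, while the cytosolic sum was low in siMyc libraries both with and without dox.

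The genes differed in level by more than an order of magnitude. Averaged over the 12 libraries, they ran from 5.93 to 148 RPKM with a median of 31.9 RPKM. The highest was Mrpl52 (148 RPKM), followed by Mrpl12 (83.3 RPKM), Mrpl20 (78.5 RPKM), Mrpl30 (76.1 RPKM) and Mrpl42 (75.3 RPKM), all large subunit proteins. Lowest were Mrpl1 (5.93 RPKM), whose bacterial counterpart forms the L1 stalk, Mrpl41 (6.20 RPKM) and Mrpl19 (7.07 RPKM). RNA levels of subunits of the same particle were thus unequal, and how the counting treated reads shared with near-identical copies elsewhere in the genome is not known.

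With dox in siControl cells, 69 of the 76 genes (90.8%) were called higher, where 46.1% of all genes tested were called higher. No mitochondrial ribosomal protein gene was called lower by limma trend, with 27.9% of all genes called lower, nor was any by limma voom on recovered reads or at an unadjusted p under 0.05. Their median log2 change was 0.88, against 0.17 over all genes tested. The median was 0.90 for the large and 0.81 for the small subunit genes, and 0.94 for the 29 proteins classed as having no bacterial counterpart and 0.80 for the 46 with one. The SD over the 76 genes was 0.39. Median-ratio scaling and quantile normalization lowered the all-gene median to 0.05 and 0.00, and that of the family to 0.73 and 0.68.

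Mrpl47, a large subunit protein of bacterial descent, had the largest rise. It stood at 45.6 and 47.9 RPKM in siControl with dox and at 15.4 RPKM in both libraries of siControl without dox, a log2 change of 1.54 ± 0.10 (SE, limma adjusted p = 4.8e-07). Genes named for the largest change were taken only from those whose groups did not overlap. The GENCODE annotation of GRCm38 gives Mrpl47 up to 452 bases of exon shared with Actl6a (34.3 RPKM on average) and 158 bases with Ndufb5 (58.4 RPKM), both on the opposite strand, and the use of strand in counting is not known. Mrps35, a small subunit protein without a bacterial counterpart, reached 36.6 and 43.9 RPKM in siControl with dox, against 12.4 and 14.2 RPKM in siControl without dox. Mrpl16, a large subunit protein, reached 45.1 and 48.8 RPKM with dox against 15.5 and 16.0 RPKM without. For Mrps5, at the mRNA entry side of the small subunit, the values were 63.5 and 67.9 RPKM in siControl with dox and 23.2 and 23.8 RPKM in siControl without dox. These 3 genes rose by log2 1.53, 1.52 and 1.44. Mrpl12, the large subunit stalk protein that also binds the mitochondrial RNA polymerase, had 166 and 167 RPKM in siControl with dox against 62.2 and 63.1 RPKM in siControl without dox, a log2 change of 1.40 ± 0.11 (limma adjusted p = 1.4e-06).

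A minority stayed near its starting level. The 7 genes not called were Mrpl33 (log2 change -0.05), Mrpl54 (0.08), Mrps21 (0.08), Mrpl14 (0.11), Mrps6 (0.12), Mrps36 (0.16) and Mrpl53 (0.21), and the sign changed under median-ratio scaling or quantile normalization for Mrpl54, Mrps21, Mrpl14, Mrps6 and Mrps36. Mrpl33, a small protein of bacterial descent, had 61.6 and 60.2 RPKM in siControl with dox and 59.2 and 67.2 RPKM in siControl without dox, so its groups overlapped. It was called lower, at log2 -0.26, only under quantile normalization. Mrpl14, which sits at the interface between the subunits, had 31.4 and 28.1 RPKM with dox and 28.8 and 26.1 RPKM without. Among the genes called, the smallest rise was that of Mrpl52, the most abundant, at 161 and 148 RPKM in siControl with dox against 133 and 134 RPKM in siControl without dox (log2 change 0.21 ± 0.08, limma adjusted p = 0.0318). The dox change was larger for longer gene models, with a median log2 change of 0.92 over the 38 longer and 0.68 over the 38 shorter genes, as implied by their reads and RPKM. The 7 genes not called all had short models, of 407 to 780 bases against a family median of 1053. The rank correlation of change with length was 0.37 over the 76 genes and -0.08 over all 13175 genes, as a description over genes that share all libraries.

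The 3 Mrps18 paralogues resemble the same bacterial protein, for which only Mrps18c is counted above, and occupy different places, Mrps18a in the large subunit and Mrps18b and Mrps18c in the small subunit. Mrps18b reached 77.5 and 80.7 RPKM in siControl with dox against 39.9 and 41.9 RPKM in siControl without dox (log2 change 0.94). Mrps18a reached 59.95 and 58.03 RPKM against 31.4 and 32.7 RPKM (log2 change 0.86). Mrps18c had 63.9 and 71.8 RPKM against 51.6 and 51.9 RPKM (log2 change 0.38), and the change of all 3 was called. Mrps12, a protein of the decoding centre, rose by log2 0.49 and Mrps30, of the large subunit, by log2 1.23.

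Markers of the cells themselves moved with dox in the same libraries. The summed RPKM of 10 fibroblast markers was 3035 to 3476 in siControl with dox and 12330 to 12350 in siControl without dox, and all 10 were called lower. The sum of 6 epithelial markers was 451 to 514 RPKM with dox and 6.54 to 7.53 RPKM without. The neural list was carried by Tubb3, at 149 RPKM with dox and 21.9 RPKM without, with its other 3 genes under 1 RPKM. Of 5 blood markers, 4 were below 1 RPKM in both groups. In the siMyc libraries with dox the fibroblast sum was 6421 to 6459 RPKM, and the epithelial sum was 1125 to 1241 RPKM. That sum was mostly Krt14, at 954 RPKM in siMyc with dox and 334 RPKM in siControl with dox, and Krt8, at 204 RPKM in siMyc with dox and 125 RPKM in siControl with dox. Cdh1 went the other way, at 5.05 RPKM in siMyc with dox against 17.0 RPKM in siControl with dox (log2 change -1.57). Of 5 skeletal muscle markers, summing to 258 to 267 RPKM in siMyc with dox and 41.2 to 62.0 RPKM in siControl with dox, Acta1 held most, and Myod1, Myog and Myh3 were under 1 RPKM. In siGcn5 without dox the fibroblast sum was 9533 to 9949 RPKM and the epithelial sum 36.5 to 41.9 RPKM. Against siControl without dox, 6 of 10 fibroblast markers were called lower there (20.4% of all genes were), and 3 of 5 tested epithelial markers higher (36.9%). The part of these changes of cell state in the ribosomal protein values was not tested, and in bulk RNA fewer cells of a type and less RNA per cell cannot be told apart.

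**Figure D2:**
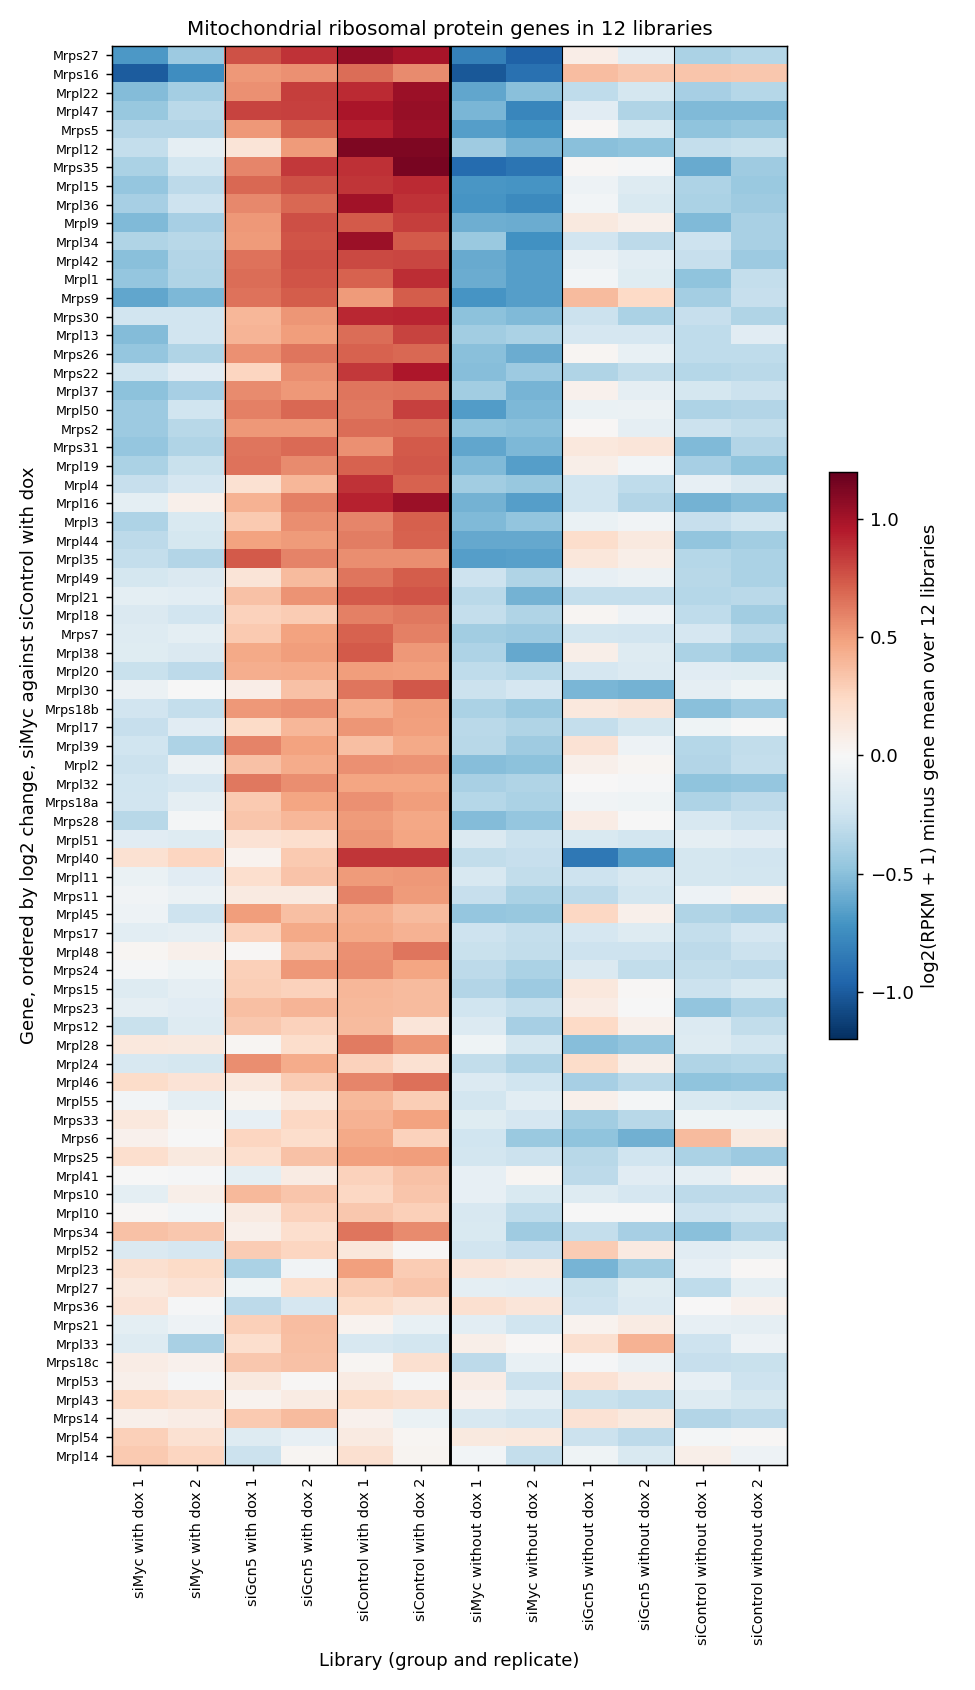
Level of each of the 76 genes (rows, ordered by the siMyc against siControl change with dox) in the 12 libraries (columns), as log2(RPKM + 1) minus the gene's mean. Upper rows such as Mrps27 and Mrpl22 are low in siMyc with dox and high in siGcn5 and siControl with dox, and Mrps16 is low in all 4 siMyc libraries.

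In siMyc cells the dox response was smaller. Dox raised 36 of the 76 genes (47.4%) in siMyc cells, against 28.9% of all genes tested, and lowered 1, against 15.9%. The median log2 change was 0.23, with 0.08 over all genes. This count depended on scaling, with 15 genes (19.7%) called higher and 1 lower under median-ratio scaling and 11 (14.5%) higher and 2 lower under quantile normalization. Of all genes 22.8% and 19.3% were called higher under these scalings, so the share of the family was then below that of all genes. The count also fell without either of 2 libraries, and the share of the family called higher was then near that of all genes. Without replicate 2 of siMyc without dox the median log2 change was 0.18, with 0.08 over all genes. Without replicate 2 of siMyc with dox it was 0.17, with 0.07 over all genes. The largest rises were those of Mrps34 (log2 change 0.64), Mrps35 (0.60), Mrpl16 (0.59) and Mrpl40 (0.50). Mrps34, a small subunit protein without a bacterial counterpart, had 26.9 and 26.4 RPKM in siMyc with dox against 18.3 and 15.3 RPKM in siMyc without dox. Mrpl33 was the gene called lower, at 63.1 and 53.4 RPKM in siMyc with dox against 74.1 and 70.8 RPKM in siMyc without dox (log2 change -0.32, limma adjusted p = 0.0322). That call was lost without filtering and without 3 of these 4 libraries in turn, where the adjusted p ran up to 0.234.

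In siGcn5 cells dox raised 65 of the 76 genes (85.5%), where 36.0% of all genes rose. By limma trend no gene of the family was called lower, with 22.4% of all genes lower, nor was any by voom or at an unadjusted p under 0.05. The median log2 change was 0.52, with 0.08 over all genes. Mrpl47 again had the largest rise, at 40.4 and 40.7 RPKM in siGcn5 with dox against 20.5 and 17.4 RPKM in siGcn5 without dox (log2 change 1.06). It was followed by Mrpl22 (0.95), Mrpl40 (0.93) and Mrpl34 (0.91), all large subunit proteins. Of the 36 genes that rose with dox in siMyc cells and the 69 that rose in siControl cells, 34 were shared. With 90.8% of the family called higher in siControl, most of any 36 would be shared. The joint share over all genes was not counted.

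**Figure D3:**
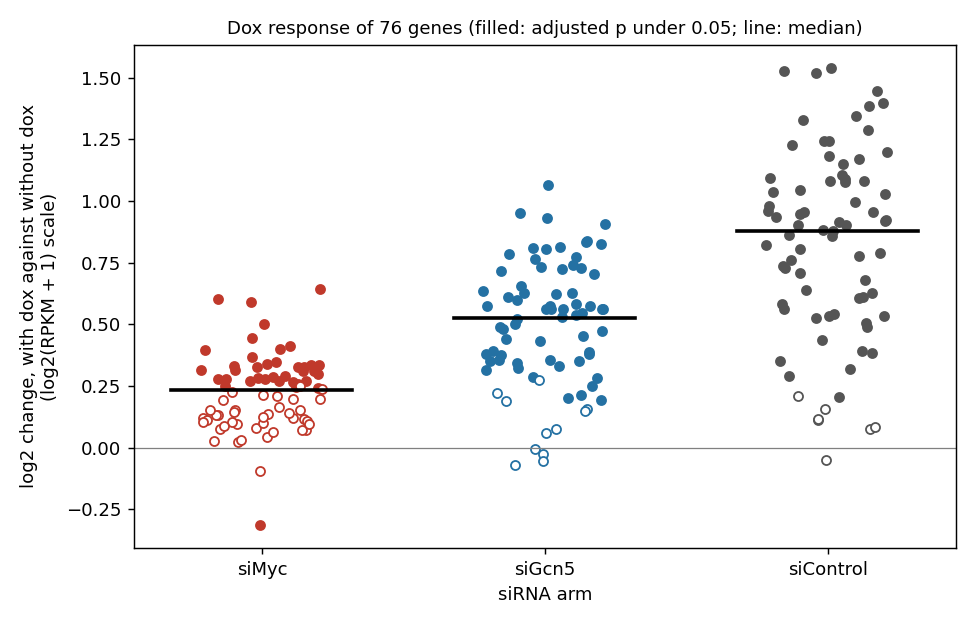
Log2 change with dox against without dox (log2(RPKM + 1) scale) of each of the 76 genes in siMyc, siGcn5 and siControl cells. Filled points were called at an adjusted p under 0.05 and lines are medians, at 0.23 in siMyc, 0.52 in siGcn5 and 0.88 in siControl.

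The difference of these dox responses was tested directly as an interaction. For siMyc, the dox response was smaller than in siControl for 60 of the 76 genes (78.9%), where 29.3% of all genes had a lower interaction call. By limma trend no interaction was called higher, nor was any at an unadjusted p under 0.05 or by voom, with 24.8% of all genes called higher. The median interaction was -0.60, with -0.03 over all genes. The largest were those of Mrpl47 (-1.26 ± 0.14, SE), Mrpl22 (-1.23), Mrpl9 (-1.12) and Mrps5 (-1.11), all of bacterial descent. The 16 genes not called included Mrpl14 (0.34), Mrps6 (0.25), Mrpl54 (0.04), Mrps21 (0.01) and Mrps16 (-0.20).

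For siGcn5, the interaction was called lower for 36 of the 76 genes (47.4%), where 14.5% of all genes were, and higher for 1, where 11.4% were. The median was -0.35, with -0.08 over all genes. Mrps35 (-0.81), Mrpl44 (-0.78), Mrps5 (-0.74) and Mrpl16 (-0.71) were the largest. Mrpl44 folds like an endonuclease of bacteria, and in humans mutations in it cause a heart disease. It had 15.6 and 15.9 RPKM in siGcn5 with dox against 17.2 and 18.3 RPKM in siControl with dox, and 12.8 and 11.9 RPKM in siGcn5 without dox against 7.55 and 7.87 RPKM in siControl without dox, so it was high in siGcn5 cells before dox. The count was 23 under quantile normalization, with 28.9% of the family lower against 11.2% of all genes. It also fell when replicate 1 of siGcn5 without dox, either library of siControl without dox, or replicate 2 of siControl with dox was left out. The median was then -0.36 to -0.32, with -0.09 to -0.07 over all genes. Both interactions use the same siControl libraries, so their values are not independent.

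Without dox, siMyc moved few of the genes. In siMyc without dox 15 of the 76 genes (19.7%) were called lower and 1 higher against siControl without dox, where 10.7% of all genes were lower and 12.8% higher. The median log2 change was -0.12, with 0.02 over all genes. With any 1 of the 4 libraries compared left out, the median was -0.14 to -0.08, with 0.02 over all genes. Fewer genes were then called, in the family and over all genes. The share of the family called lower was then near or below that of all genes. The gene called higher, Mrpl46, had 14.5 and 13.8 RPKM in siMyc without dox against 11.5 and 11.6 RPKM in siControl without dox (log2 change 0.27, limma adjusted p = 0.032), and was no longer called under either other scaling or without any of these 4 libraries.

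Mrps16, a small subunit protein of bacterial descent, stood apart. It had 16.3 and 17.8 RPKM in siMyc without dox against 43.3 and 42.9 RPKM in siControl without dox, a log2 change of -1.29 ± 0.09 (SE, limma adjusted p = 0.00018). With dox it had 16.6 and 19.9 RPKM in siMyc against 54.8 and 51.1 RPKM in siControl (log2 change -1.49 ± 0.09, limma adjusted p = 3.1e-07). In siGcn5 it had 49.2 and 50.4 RPKM with dox and 44.2 and 42.9 RPKM without. All 4 siMyc libraries lay below all 8 other libraries, with dox or without, while the gene was higher with dox than without in siControl by log2 0.29 only. Its siMyc by dox interaction was -0.20 (limma adjusted p = 0.184). The next falls without dox were those of Mrps6 (-0.59), Mrps27 (-0.53) and Mrps35 (-0.39), and the call of Mrps35 was lost without any 1 of the 4 libraries, with adjusted p from 0.0634 to 0.213.

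With dox, siMyc lowered most of the family. In siMyc with dox 65 of the 76 genes (85.5%) were called lower than in siControl with dox, where 37.1% of all genes were, and 1 was called higher, where 37.7% of all genes were. The median log2 change was -0.71, with 0.02 over all genes. It was -0.73 for the large and -0.58 for the small subunit genes. By length of gene model it was -0.88 over the 38 longer and -0.58 over the 38 shorter genes. Leaving out 1 library gave a median over all 76 genes of -0.76 to -0.67.

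Mrps27, a helical repeat protein of the small subunit without a bacterial counterpart, had the largest fall. It had 8.87 and 10.8 RPKM in siMyc with dox against 32.1 and 30.8 RPKM in siControl with dox (log2 change -1.58 ± 0.11, SE, limma adjusted p = 6e-07). Mrpl22, which lines the peptide exit tunnel, had 25.3 and 27.5 RPKM against 69.35 and 75.97 RPKM (log2 change -1.42). Mrpl47, at the tunnel exit, had 16.3 and 17.9 RPKM against 45.6 and 47.9 RPKM (log2 change -1.40). For these 3 genes the values in siMyc with dox were near those in siControl without dox. The latter were 11.3 and 11.6 RPKM for Mrps27, 27.8 and 28.9 RPKM for Mrpl22 and 15.4 RPKM in both libraries for Mrpl47. Mrpl12 fell to 62.0 and 70.7 RPKM in siMyc with dox, against 166 and 167 RPKM in siControl with dox (log2 change -1.32).

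The 11 genes not called lower were Mrpl14 (log2 change 0.17), Mrpl54 (0.17), Mrps14 (0.09), Mrpl43 (0.01), Mrpl53 (-0.01), Mrps18c (-0.04), Mrpl33 (-0.07), Mrps21 (-0.07), Mrps36 (-0.11), Mrpl27 (-0.17) and Mrpl23 (-0.18), and the signs of Mrpl53 and Mrps18c changed under another scaling. Mrpl54, called higher, had 70.7 and 65.9 RPKM in siMyc with dox against 62.4 and 59.0 RPKM in siControl with dox. Its limma adjusted p was 0.0347, and it ran up to 0.21 over the alternatives. This comparison shares the siControl libraries with dox with the dox response above, so the values of both are not independent.

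**Figure D4:**
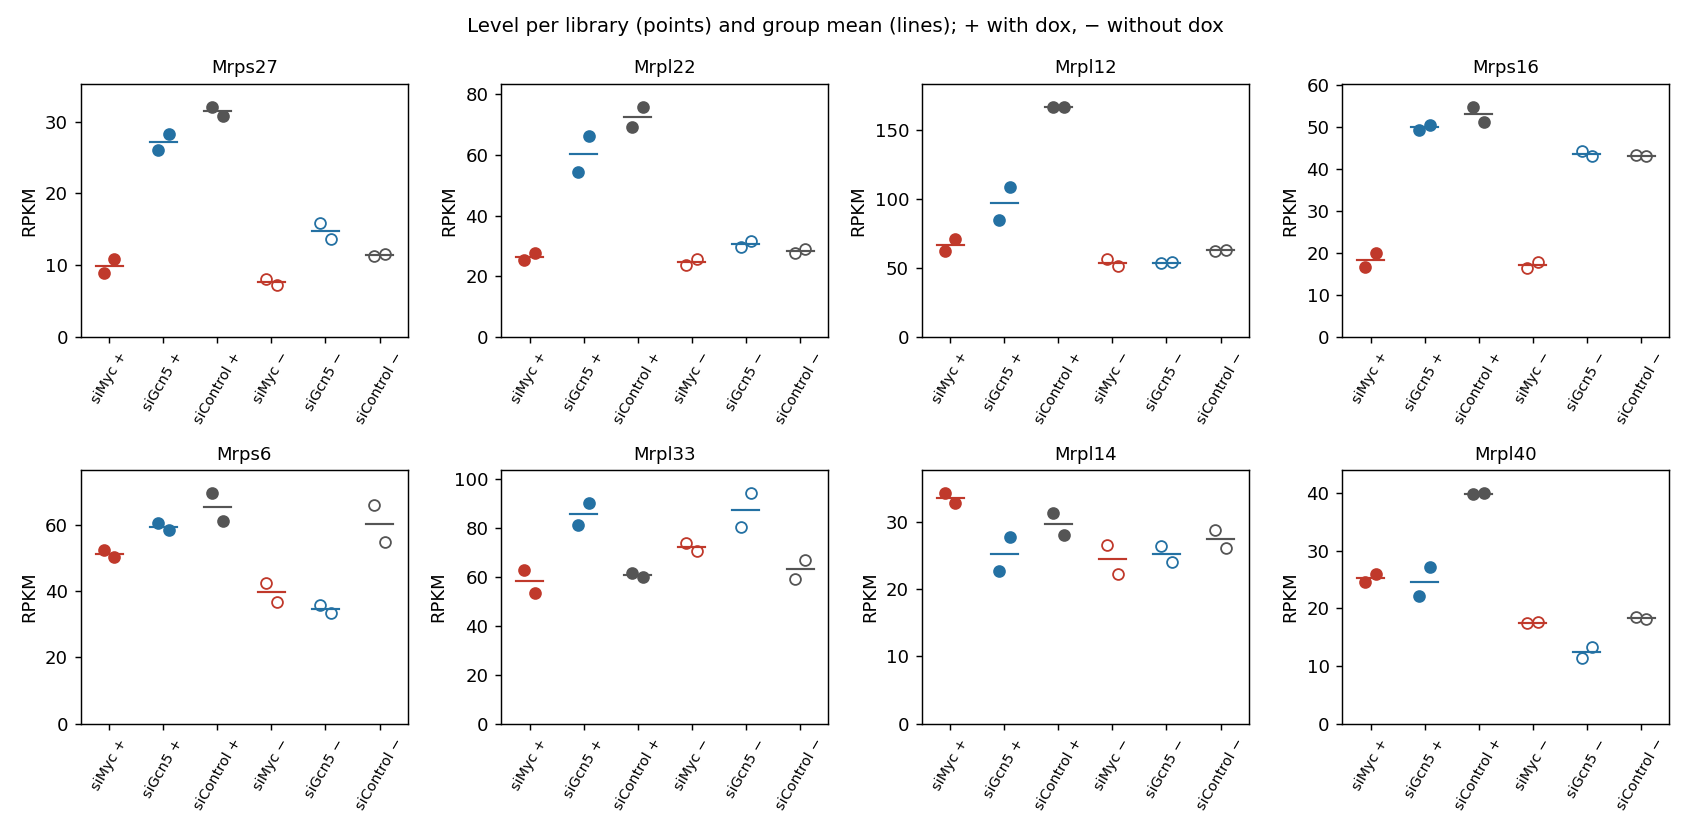
RPKM per library (points) and group mean (lines) of 8 genes in the 6 groups, filled with dox and open without dox. Mrps27, Mrpl22 and Mrpl12 are lower in siMyc than in siControl with dox, Mrps16 is low in every siMyc library, and Mrpl33 and Mrpl14 were not called with dox in siControl.

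Promoter windows were read for which short motifs lie near the start sites of genes that fell and of a gene that did not. Myc is known to bind the E-box CACGTG with its partner Max, factors of the ETS family bind CCGGAAG, and NRF1, a regulator of nuclear genes for mitochondria, binds a palindrome that was searched in its 1 exact form. RefSeq windows of 300 bases, 250 before and 50 after the annotated start on build GRCm38.p6, were at hand for 67 of the 76 genes, and both strands were searched. A gene was counted if any of its windows held a match. The E-box was found for 5 genes (7.46%), Mrpl2, Mrpl20, Mrpl36, Mrpl37 and Mrps18c. It was found for 11.9% of the 9088 tested genes with a window and 8.09% of all genes with one. The ETS motif was found for 24 genes (35.8%), against 19.5% of tested genes and 9.93% of all genes with a window. The NRF1 motif was found for 3 (4.48%), against 2.27% and 1.07%. Capitals mark E-box and ETS matches, and the 4 windows, each on the plus strand, were chosen after the values were seen.
Mrps27 (chr13:99344536-99344835, 1 ETS match): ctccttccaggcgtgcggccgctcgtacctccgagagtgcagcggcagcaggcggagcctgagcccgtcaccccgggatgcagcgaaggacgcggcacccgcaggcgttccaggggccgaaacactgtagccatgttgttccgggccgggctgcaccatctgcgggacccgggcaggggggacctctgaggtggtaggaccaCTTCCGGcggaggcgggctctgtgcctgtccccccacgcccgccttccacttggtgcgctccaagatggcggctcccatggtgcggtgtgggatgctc
Mrpl22 (chr11:58171414-58171713, 1 ETS match): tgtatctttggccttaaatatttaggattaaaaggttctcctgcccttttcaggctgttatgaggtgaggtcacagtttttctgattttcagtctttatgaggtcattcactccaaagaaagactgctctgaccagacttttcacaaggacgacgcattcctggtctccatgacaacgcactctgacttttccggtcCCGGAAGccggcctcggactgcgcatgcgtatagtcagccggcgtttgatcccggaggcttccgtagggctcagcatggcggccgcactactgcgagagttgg
Mrpl36 (chr13:73330759-73331058, 1 E-box): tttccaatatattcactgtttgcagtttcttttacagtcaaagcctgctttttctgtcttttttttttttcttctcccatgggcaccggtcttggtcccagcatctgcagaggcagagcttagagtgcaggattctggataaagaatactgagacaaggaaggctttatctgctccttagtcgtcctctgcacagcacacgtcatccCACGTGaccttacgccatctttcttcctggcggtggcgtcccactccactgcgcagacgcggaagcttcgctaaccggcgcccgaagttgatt
Mrps18c (chr5:100798509-100798808, 1 E-box and 1 ETS match): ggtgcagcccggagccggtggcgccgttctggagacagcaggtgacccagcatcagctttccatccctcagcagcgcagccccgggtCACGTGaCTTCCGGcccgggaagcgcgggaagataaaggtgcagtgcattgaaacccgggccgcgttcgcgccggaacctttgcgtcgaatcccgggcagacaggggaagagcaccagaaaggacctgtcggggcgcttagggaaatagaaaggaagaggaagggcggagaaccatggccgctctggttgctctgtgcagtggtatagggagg

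Mrps27 and Mrpl22, 2 of the genes that fell most in siMyc with dox, had no CACGTG in these windows. Mrpl36, with an E-box at -43 from the start, fell to 17.1 and 19.1 RPKM in siMyc with dox, against 47.1 and 42.6 RPKM in siControl with dox. Mrps18c, with an E-box at -163 next to an ETS match at -156, had 66.8 and 64.9 RPKM in siMyc with dox and 63.9 and 71.8 RPKM in siControl with dox. The 5 genes with an E-box had a median log2 change of -0.79 in siMyc with dox, and the 62 without one had -0.67. A match is a description of these letters and not of binding.

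Several of the genes share a start region with a neighbour on the opposite strand. Of the 67 genes with a RefSeq window, 22 start within 500 bases of such a neighbour, and the share over all genes was not counted. Mrpl46 and Mrps11, whose starts lie 42 bases apart, pair a large with a small subunit gene. In siMyc with dox against siControl with dox, Mrpl46 changed by log2 -0.43 and Mrps11 by -0.61, and with dox in siControl they rose by log2 1.09 and 0.56. Neighbours did not always move alike. Klc4, a kinesin light chain gene whose start lies 141 bases from that of Mrpl2, was called higher in siMyc with dox (log2 change 1.41) where Mrpl2 was called lower (-0.71). Ptcd2, a mitochondrial RNA-binding protein gene, starts 108 bases from Mrps27 and was lower with it, at log2 -1.07.

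Cytosolic ribosomal protein genes, 76 by the symbols Rpl and Rps, behaved differently before dox. In siMyc without dox 75 of the 76 cytosolic genes (98.7%, against 10.7% of all genes) were called lower, with a median log2 change of -0.66, against -0.12 for the mitochondrial genes in the same libraries. With dox all 76 were called lower in siMyc, against 37.1% of all genes, with a median of -0.98. Dox in siControl raised 67 of them (88.2%, against 46.1% of all genes), with a median of 0.44. The siMyc by dox interaction was called lower for 28 cytosolic genes (36.8%, median -0.34) and 60 mitochondrial genes (78.9%, median -0.60), against 29.3% of all genes. The ratio of the cytosolic to the mitochondrial sum was 21.2 and 23.7 for siMyc against 27.7 and 27.9 for siControl with dox, and 22.4 and 25.6 for siMyc against 34.4 and 36.2 for siControl without dox. In siGcn5 it was 25.1 and 26.5 with dox and 29.4 and 31.5 without. The ratios of siMyc libraries and of siGcn5 libraries with dox lay below all siControl ratios. These counts and medians describe both lists and no test between them was made, and many cytosolic genes have near-identical pseudogenes that can take or lose reads.

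**Figure D5:**
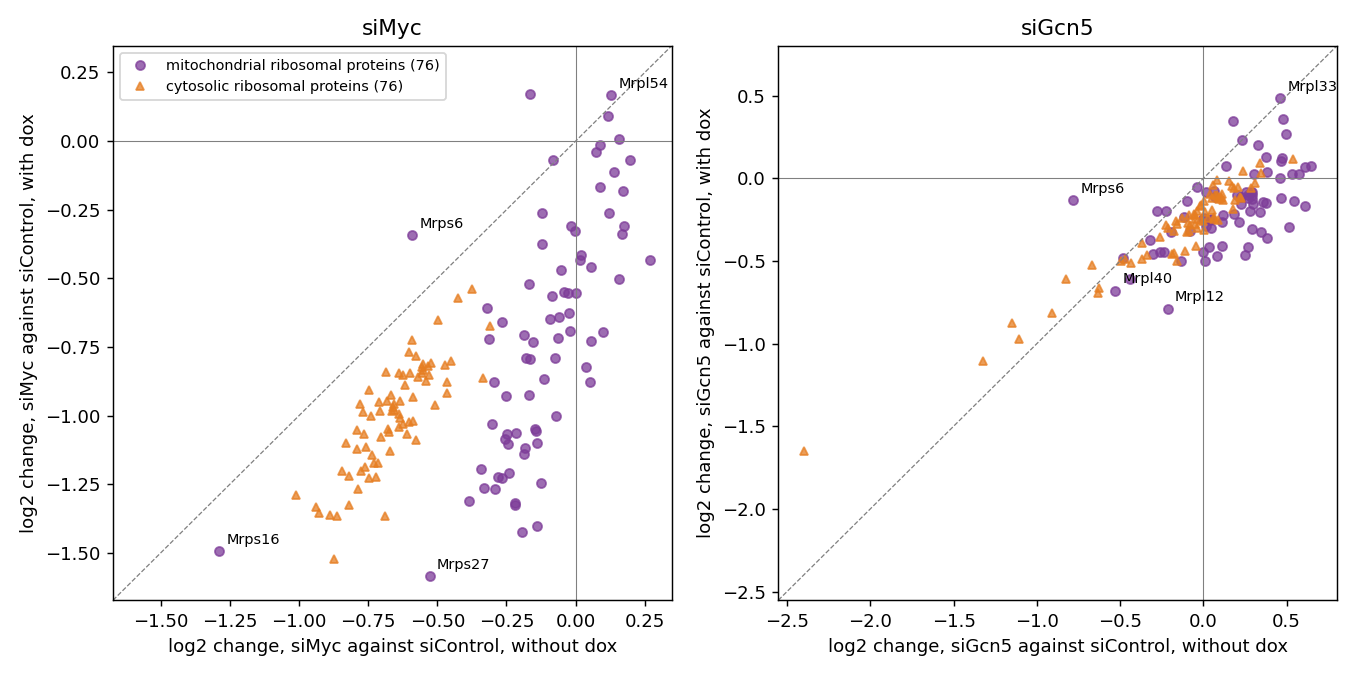
Log2 change of each gene for siMyc (left) and siGcn5 (right) against siControl, without dox (x) and with dox (y), on the log2(RPKM + 1) scale. Under siMyc the cytosolic genes (triangles) lie below 0 on both axes, with medians of -0.66 and -0.98, while most mitochondrial genes (circles) lie near 0 without dox and below 0 with dox, with medians of -0.12 and -0.71.

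Without dox, Gcn5 depletion gave calls in both directions, and whether the family exceeded all genes depended on scaling and on single libraries. In siGcn5 without dox 40 of the 76 genes (52.6%) were called higher and 10 (13.2%) lower than in siControl without dox, where 36.9% of all genes were higher and 20.4% lower. The median log2 change was 0.22, and that of all genes was 0.11. Scaling moved the zero of this comparison, with 18 genes (23.7%) higher and 16 (21.1%) lower under median-ratio scaling, which lowered the all-gene median to 0.00, and 21 (27.6%) higher and 14 (18.4%) lower under quantile normalization. Of all genes, 26.4% were higher and 27.2% lower under the first and 28.7% higher and 24.4% lower under the second, so neither share of the family was then above that of all genes. Without replicate 1 of siGcn5 without dox the median log2 change was 0.18, with 0.10 over all genes. Without replicate 2 of siControl without dox it was 0.20, with 0.11 over all genes. Fewer genes were called in both fits, and the share of the family called higher was then near that of all genes. Mrps9, a small subunit protein of bacterial descent, had 35.02 and 31.66 RPKM in siGcn5 without dox against 19.9 and 21.9 RPKM in siControl without dox (log2 change 0.65 ± 0.09, SE, limma adjusted p = 0.0002). Mrpl44 (0.61), Mrps18b (0.61) and Mrps31 (0.58) followed. On the other side, Mrpl40 had 11.5 and 13.4 RPKM against 18.4 and 18.2 RPKM (log2 change -0.53), and Mrpl30 (-0.48) and Mrpl23 (-0.44) were also lower. Without replicate 1 of siGcn5 without dox the adjusted p of Mrpl23 was 0.053.

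Mrps6, a small subunit protein of bacterial descent, had the largest fall of the family in siGcn5 without dox. It had 35.7 and 33.3 RPKM in siGcn5 without dox and 42.5 and 36.6 RPKM in siMyc without dox, against 65.8 and 54.6 RPKM in siControl without dox, so both knockdowns lay below siControl. The log2 change for siGcn5 was -0.78 ± 0.10 (SE, limma adjusted p = 0.00016). With dox it had 60.4 and 58.3 RPKM in siGcn5 and 52.2 and 50.2 RPKM in siMyc, against 69.4 and 61.2 RPKM in siControl. Its siGcn5 by dox interaction, 0.65, was the 1 higher call, with an adjusted p of 0.0125 that became 0.0507 without replicate 2 of siControl with dox. Mrps6 shares up to 159 bases of exon on the same strand with Slc5a3, a myo-inositol transporter gene at 3.93 RPKM on average, so reads there cannot be told apart. Other same-strand overlaps, with genes that have no value here, included Gm49711 (165 bases) for Mrps6 and Gm42688 (418 bases) for Mrpl53. For Mrps18c and Mrpl33 they were Gm43511 (112 bases) and Gm43809 (107 bases).

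With dox, siGcn5 lowered more of the genes than it raised. In siGcn5 with dox 30 of the 76 genes (39.5%) were called lower and 6 (7.89%) higher than in siControl with dox, where 24.9% of all genes were lower and 31.4% higher. The median log2 change was -0.16, with 0.05 over all genes. Under median-ratio scaling 51 (67.1%, against 31.7% of all genes) were lower and 3 higher. In a fit of the compared groups alone 21 (27.6%, against 19.4% of all genes) were lower and 3 (3.95%, against 25.2%) higher. Without replicate 1 of siGcn5 with dox the median log2 change was -0.13, with 0.03 over all genes. Mrpl12 fell most, to 84.9 and 109 RPKM in siGcn5 with dox, against 166 and 167 RPKM in siControl with dox (log2 change -0.79 ± 0.11, SE, limma adjusted p = 0.00024). Mrpl40 (-0.68), Mrpl23 (-0.61) and Mrps22 (-0.50) came next. Higher were Mrpl33 (0.49), Mrps14 (0.36), Mrps21 (0.35), Mrpl24 (0.27), Mrps18c (0.23) and Mrpl52 (0.20), of which Mrpl24, Mrps18c and Mrpl52 were no longer called under median-ratio scaling. Mrpl24 also lost its call in the fit of the compared groups alone (adjusted p = 0.0524) and without replicate 2 of siControl with dox (0.0716) or replicate 1 of siGcn5 with dox (0.0725). Mrpl33 had 81.2 and 90.5 RPKM in siGcn5 with dox against 61.6 and 60.2 RPKM in siControl with dox, and 80.6 and 94.3 RPKM in siGcn5 without dox against 59.2 and 67.2 RPKM in siControl without dox.

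Both siGcn5 comparisons use different libraries, and calls in them were set side by side. Called lower in both were 8 genes (10.53%, against 12.2% of all genes tested), Mrpl23, Mrpl28, Mrpl30, Mrpl40, Mrpl54, Mrps11, Mrps33 and Mrps36, and called higher in both were 5 (6.58%, against 21.6%), Mrpl24, Mrpl33, Mrpl52, Mrps14 and Mrps18c. Another 7 (9.21%, against 1.34%), Mrpl16, Mrpl18, Mrpl36, Mrpl49, Mrpl55, Mrps5 and Mrps35, were called higher without dox and lower with dox. Mrps35 is an example, with 29.6 and 35.7 RPKM in siGcn5 with dox against 36.6 and 43.9 RPKM in siControl with dox, and 19.6 and 19.2 RPKM in siGcn5 without dox against 12.4 and 14.2 RPKM in siControl without dox. Counts of this kind move with the scaling noted for each comparison.

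Both depletions were also compared with each other after dox. In siMyc with dox 58 of the 76 genes (76.3%) were called lower and 4 (5.26%) higher than in siGcn5 with dox, where 38.6% of all genes were lower and 27.3% higher. The median log2 difference was -0.54, with -0.09 over all genes. Mrps16 (-1.41), Mrps27 (-1.38), Mrps9 (-1.27) and Mrpl47 (-1.204) were lowest in siMyc relative to siGcn5. Higher in siMyc were Mrpl23 (0.42), Mrpl14 (0.41), Mrpl54 (0.37) and Mrps36 (0.33). Without replicate 1 of siGcn5 with dox the calls of Mrpl23 and Mrpl14 were lost, at adjusted p of 0.0513 and 0.0822. Mrpl23, at the exit tunnel, had 44.3 and 45.3 RPKM in siMyc with dox and 29.4 and 37.4 RPKM in siGcn5 with dox, with 54.5 and 47.7 RPKM in siControl with dox. Mrpl12 was low in both, with 62.0 and 70.7 RPKM in siMyc and 84.9 and 109 RPKM in siGcn5.

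Other genes of the pathway were taken from lists by name. Their counts stand against 46.1% of all genes called higher with dox in siControl, and against 37.1% called lower and 37.7% higher in siMyc with dox. Of 8 further mitoribosome proteins with other symbols, dox raised all 8 in siControl and siMyc with dox lowered 6. Ptcd3, a small subunit protein that binds RNA, rose by log2 1.43 with dox in siControl and was lower by log2 -1.72 in siMyc with dox. Gadd45gip1 (1.09 with dox, -1.09 in siMyc with dox) and Dap3 (0.65 with dox, -0.89 in siMyc with dox) followed. Of 12 translation factors, 12 rose with dox in siControl and 10 were lower in siMyc with dox. Tsfm (1.32), Gfm1 (1.32) and Tufm (1.26), which are elongation factors, rose most with dox, and Tufm (-1.40), Gfm1 (-1.16) and Guf1 (-1.04) were lowest in siMyc with dox.

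Assembly and import genes were described in the same way. Of 21 assembly and ribosomal RNA modification genes, 18 rose with dox in siControl, and 17 were lower and 3 higher in siMyc with dox. Noa1, a GTPase of small subunit assembly, rose by log2 1.68 and Rbfa, a ribosome-binding factor, by log2 1.65, ahead of Mtg1 (1.36). In siMyc with dox, Noa1 (-1.52), Mettl17 (-1.22) and Gtpbp10 (-1.21) changed most. All 11 genes of mitochondrial DNA transcription and maintenance that were tested rose with dox in siControl and were lower in siMyc with dox. Elac2, which cuts the 3′ ends of mitochondrial tRNA precursors, rose by log2 1.82 with dox and was lower by log2 -2.03 in siMyc with dox, with Peo1, the mitochondrial DNA helicase, at 1.68 and -1.72. Lrpprc (1.24) with dox, and Ssbp1 (-1.34) in siMyc with dox, completed the 3 largest. Of 20 import genes, 18 rose and 1 fell with dox in siControl, led by Timm8a1 (2.37), Tomm5 (1.63) and Timm10 (1.42), and in siMyc with dox 16 were lower and 1 higher, led by Timm8a1 (-2.12), Tomm5 (-1.46) and Timm9 (-1.32). Of 28 listed genes of mitochondrial DNA itself, 0 were found by their symbols among the genes measured. The genes of mitochondrial DNA, with the mitochondrial ribosomal RNAs, were therefore not analysed here.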

How the data were processed

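RNA was depleted of ribosomal RNA and sequenced as stranded libraries, per the labels' protocols. The authors deposited RPKM per gene for each of 12 libraries. The submitters' processing notes name the build mm9, the aligners Bowtie 0.12.8 and TopHat2 2.0.9, and also HTSeq, affy and edgeR. The sources used here do not say which tool made the values, nor the annotation or the use of strand. RPKM is relative and does not measure total RNA per cell.

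Here, groups came from the sample labels. Genes with at least 1 RPKM in at least 2 libraries (13175) were fitted in limma 3.58.1 (R 4.3.3) on log2(RPKM + 1), with 6 group terms and a trended prior, and p-values were adjusted over all genes. Genes were named by rule: the 5 highest and 3 lowest in mean RPKM, up to 4 called rises and 4 called falls with the largest change and no overlap in each comparison, genes outside the family's direction in dox in siControl and siMyc with dox (all if 10 or fewer, otherwise the 5 most abundant), 7 genes with a role of their own, and in pathway lists the 3 largest called changes. All others named were chosen after their values were seen. Alternatives changed the pseudocount (0.1), the filter, the scaling, the samples fitted and the libraries, or used voom on whole reads recovered from the RPKM steps (within 0.05 of a read). Recovery gave whole reads in every library for 100% of 20788 genes. The procedure was tested on simulated data. Members and lists were chosen with earlier results of these data known. Promoter windows came from RefSeq on GRCm38.p6, and no coordinates of mm9 were used. Python 3.11.15 and matplotlib 3.10.9 drew the figures.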

Additional observations from a re-analysis of the deposited data

Results flagged for a closer look

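The dox response differed between siMyc and siControl cells, by the interaction test, for 60 of the 76 mitochondrial ribosomal protein genes (78.9%), all with a smaller response in siMyc. Of all genes tested, 29.3% had a lower and 24.8% a higher interaction call. The interaction was -1.26 for Mrpl47, -1.23 for Mrpl22, -1.12 for Mrpl9 and -1.11 for Mrps5 on the log2 scale.

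Between siGcn5 and siControl cells the dox response differed for 37 of the genes, with 36 (47.4%) lower and 1 higher. Of all genes tested, 14.5% had a lower and 11.4% a higher call of this interaction. The interaction was 0.65 for Mrps6, whose response was larger in siGcn5, and -0.81 for Mrps35, -0.78 for Mrpl44, -0.74 for Mrps5 and -0.71 for Mrpl16, whose responses were smaller in siGcn5. With 2 libraries a group, no library could be examined as far from the others of its group.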

How the results depend on the processing

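Each count of called genes was recomputed under 8 other settings and without each of the 12 libraries. Among the 8 settings, counts outside 1.5 times the reported one were 16 under median-ratio scaling and 13 under quantile normalization for dox in siMyc. There 19.7% and 14.5% of the family were higher, against 22.8% and 19.3% of all genes. The other was the siGcn5 by dox interaction, with 23 under quantile normalization (28.9% lower, against 11.2% of all genes). Leaving out 1 library gave 14 to 42 genes for dox in siMyc, 3 to 17 for siMyc without dox, 24 to 51 for siGcn5 without dox, 20 to 42 for siGcn5 with dox and 17 to 41 for the siGcn5 by dox interaction. The median ran from 0.86 to 0.88 for dox in siControl, 0.454 to 0.545 for dox in siGcn5 and -0.76 to -0.67 for siMyc with dox. It ran from -0.63 to -0.59 for the siMyc by dox interaction and from -0.62 to -0.48 for siMyc against siGcn5. The cause was not tested.

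Signs that changed belonged to genes near 0. For dox in siControl the log2 change under median-ratio scaling was -0.072 for Mrps21, -0.078 for Mrpl54, -0.036 for Mrps6 and -0.042 for Mrpl14. Under quantile normalization it was -0.044 for Mrps36, -0.121 for Mrps21, -0.130 for Mrpl54, -0.095 for Mrps6 and -0.076 for Mrpl14. For siMyc with dox, Mrps18c was at 0.006 under quantile normalization, and Mrpl53 at 0.014 under median-ratio scaling and 0.046 under quantile normalization. Without 1 library, the dox change in siControl ran from -0.139 to 0.041 for Mrpl33 and from -0.014 to 0.250 for Mrps6, and the siMyc change with dox from -0.124 to 0.042 for Mrps18c, -0.076 to 0.051 for Mrpl53 and -0.186 to 0.049 for Mrpl33.

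The labels do not say that a replicate number marks a shared culture or day, and with 2 numbers the data cannot settle it, so samples were not taken as paired. Deviations of same-numbered samples correlated at 0.093 to 0.489 (median 0.333) over 15 pairs of groups. With the replicate number as a block, genes called higher and lower were 70 and 0 for dox in siControl, 43 and 1 for dox in siMyc, 68 and 0 for dox in siGcn5, 1 and 21 for siMyc without dox, 1 and 65 for siMyc with dox, 42 and 11 for siGcn5 without dox, and 6 and 33 for siGcn5 with dox. They were 1 and 62 for the siMyc and 1 and 47 for the siGcn5 interaction, and 4 and 59 for siMyc against siGcn5. Over all genes, the percentages called higher and lower were 48.6 and 30.1 for dox in siControl, 33.7 and 19 in siMyc, and 39.3 and 26.2 in siGcn5. For siMyc they were 18.9 and 14.8 without dox and 40.2 and 39 with dox, and for siGcn5 41.3 and 23.1, and 35.5 and 28.1. The siMyc interaction had 29.5 and 33.4, the siGcn5 interaction 16.3 and 22.1, and siMyc against siGcn5 30.2 and 41.9. Having 2 libraries a group limits the precision.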
